A study of Mus musculus with 2 samples.

Results

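Genes of the constitutive proteasome were followed through bone marrow cells of C57BL/6 mice at 6 months of age. The members were the gene symbols formed from Psma, Psmb, Psmc, Psmd, Psme or Psmg and a number, without the 3 immunoproteasome genes Psmb8, Psmb9 and Psmb10 and without pseudogenes. This gave 46 of 31053 listed genes. They comprised 31 core subunits (7 of the 20S α ring, 7 of the 20S β ring, 6 ATPases and 11 other subunits of the 19S cap), 3 chaperones of 19S assembly, 4 chaperones of 20S assembly, 4 activators, and 4 matches kept apart. The label "constitutive" held only in part: the activators Psme1 and Psme2 are known as interferon-inducible, and the 4 genes kept apart are not constitutive subunits. Those 4 are Psma8 (testis form of an α subunit), Psmb11 (thymus form of a β subunit), Psme2b (a near-identical copy of Psme2) and Psmc3ip, a recombination factor that matches by its letters alone.

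Each genotype was 1 library of droplet-based 3′ single-cell RNA sequencing, from mice described as having atherosclerosis. The null-labelled library carries the genotype Apoe(-/-), Itgb3(-/-), and the control-labelled library Apoe(-/-), Itgb3(+/+), so that both lack the apolipoprotein gene Apoe by label and differ in the integrin β3 gene. How many animals went into a library was not given. With 1 library per genotype no test was possible, and every 95% interval covers counting error between these libraries only.

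The proteasome is the cell's main protease for proteins tagged with ubiquitin. Its 20S core is a barrel of outer α rings and inner β rings, in which Psmb5, Psmb6 and Psmb7 encode the catalytic subunits, and the 19S cap binds, unfolds and feeds the substrate. In cells exposed to interferon, Psmb8, Psmb9 and Psmb10 can replace the catalytic subunits, and the Psme1-Psme2 ring can bind the barrel in place of the cap, a form known for making peptides for antigen presentation. Maturing red cells and neutrophils are known to shed much of their cell machinery.

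After filtering, 2903 cells with 33570111 unique molecular identifiers (UMIs, counts of tagged transcripts) remained in the null-labelled library and 8595 cells with 59003767 UMIs in the control-labelled library. The median depth per cell was 9321 and 4812 UMIs, so the libraries differed in depth. The libraries shared 11 deposited cell barcodes, 6 of them among the kept cells. Itgb3 had 248 and 1391 UMIs, and Apoe 2080 and 5808 UMIs; 3′ reads outside a deleted part check nothing about the genotype. Cells were grouped by expression without use of the members and named "-like" from marker genes. In each of the 7 classes with at least 100 cells in both libraries, every marker on its list had UMIs and stood above its level in the other cells in both libraries. The names were given from these same markers, so this is no independent check of them. At least 90% of the cells belonged to a single library in 140 of 147 sub-clusters, so that library and cluster cannot be told apart.

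Different clusters held most of a class in each library. Erythroid-like cells (968 null-labelled and 2042 control-labelled) came mainly from cluster 5 in the null-labelled library and from clusters 10 and 0 in the control-labelled library. Immature neutrophil-like cells (439 and 916) were cluster 2 against clusters 27 and 23, and mature neutrophil-like cells (114 and 1717) were cluster 2 against clusters 22 and 21. B precursor-like cells (296 and 1099) were mostly cluster 1 against cluster 28, and mature B-like cells (386 and 708) cluster 6 against cluster 20. Monocyte-like cells (185 and 592) were cluster 3 against cluster 29, and T-like cells (133 and 205) cluster 11 against cluster 26. Marker levels within classes differed too. In mature B-like cells the 7 markers summed to 782 counts per 1000000 UMIs other than hemoglobin (below, hemoglobin-free CPM) in the null-labelled and 4589 in the control-labelled library, and the lowest, Fcer2a, was at 2.03 in the former. The 7 B precursor markers summed to 1133 and 3140 in that class, in the null-labelled library above its own markers. In mature neutrophil-like cells the 7 markers of the class itself summed to 12181 in the null-labelled against 51843 in the control-labelled library. There the 7 markers of immature neutrophils summed to 56856 in the null-labelled against 22435 in the control-labelled library, so in the former they stood above the class's own markers. The part of these markers in the results below was not tested.

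The start regions of 4 members are shown here because each was among the 4 highest (Psme1, Psme2 and Psma5) or the 4 lowest (Psmb5) in erythroid-like cells between the libraries. Psme1 (ENSMUSG00000022216, chr14:55578123-55581529, plus strand) and Psme2 (ENSMUSG00000079197, chr14:55587441-55591113, minus strand) point towards each other across a gap of 5911 bases in GENCODE vM21 on GRCm38 (mm10). The next protein-coding genes beyond Psme2 are Rnf31, then the interferon signalling gene Irf9, then Rec8. Psma5 (ENSMUSG00000068749) spans chr3:108256926-108279974 on the plus strand, and Psmb5 (ENSMUSG00000022193) spans chr14:54614119-54618022 on the minus strand. Each window below runs from 250 bases before to 50 bases after a RefSeq gene start (GRCm38.p6), written 5′ to 3′ on the gene's strand, with motif matches in capitals.
Psme1, chr14:55578244-55578543, plus strand: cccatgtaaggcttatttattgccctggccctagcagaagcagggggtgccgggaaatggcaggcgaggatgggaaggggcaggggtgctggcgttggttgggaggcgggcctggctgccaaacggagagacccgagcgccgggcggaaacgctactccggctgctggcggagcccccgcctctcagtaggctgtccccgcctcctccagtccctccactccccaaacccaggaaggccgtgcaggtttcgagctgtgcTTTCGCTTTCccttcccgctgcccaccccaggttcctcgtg
Psme2, chr14:55591052-55591351, minus strand: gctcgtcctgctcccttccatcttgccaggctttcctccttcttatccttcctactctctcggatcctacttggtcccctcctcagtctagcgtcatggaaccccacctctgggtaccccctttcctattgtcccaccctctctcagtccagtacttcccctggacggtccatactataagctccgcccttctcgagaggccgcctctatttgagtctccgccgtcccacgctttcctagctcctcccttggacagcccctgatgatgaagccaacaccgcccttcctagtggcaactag
Psma5, chr3:108256676-108256975, plus strand: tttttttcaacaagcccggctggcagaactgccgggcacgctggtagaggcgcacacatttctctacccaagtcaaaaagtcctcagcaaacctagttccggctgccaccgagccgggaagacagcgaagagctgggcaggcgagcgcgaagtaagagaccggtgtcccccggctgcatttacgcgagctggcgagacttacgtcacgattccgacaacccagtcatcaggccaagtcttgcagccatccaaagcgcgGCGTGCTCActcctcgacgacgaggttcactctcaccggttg
Psmb5, chr14:54617946-54618245, minus strand: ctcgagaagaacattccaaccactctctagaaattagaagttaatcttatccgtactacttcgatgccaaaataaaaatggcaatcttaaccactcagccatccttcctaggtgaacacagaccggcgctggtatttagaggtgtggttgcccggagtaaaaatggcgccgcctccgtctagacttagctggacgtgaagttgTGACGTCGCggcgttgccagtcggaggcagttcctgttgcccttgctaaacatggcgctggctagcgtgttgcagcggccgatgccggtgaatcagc

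Both strands were searched. The capitals in the Psme1 window mark GAAA, 2 bases of any kind and GAAA again, a pattern of interferon-stimulated elements, at base 260. It was in the windows of 5 of 38 members with a window (Psme1, Psmb3, Psmd4, Psmd9 and Psmg4) and of 3.99% of 27025 genes. The Psme2 window held none of the 7 motifs searched. In Psmb5 the capitals mark TGACNNNGC and in Psma5 TGAGNNNGC, letters bound by the stress regulator family of Nfe2l1 and Nfe2l2. The first was found for 6 of 38 members (Psmb5, Psmb6, Psmc6, Psmd9, Psmd12 and Psme4) and 14.0% of all genes, and the second for 13 of 38 members and 19.8% of all genes. GCGC, 2 bases of any kind and GCGC again, a pattern of NRF1 sites, was in 7 members and 1891 of the 27025 genes, CCAAT in 14 and 41.1%, TTCNNNGAA in 2 and 9.55%, and TATAAA in 3 and 15.7%. A match describes letters and is not a measured binding site. The windows of Psma8, Psmb1, Psmb2, Psmb7, Psmc3, Psmd3, Psmd7 and Psmg2 were not used here.

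Within each library, the 31 core subunits together, in hemoglobin-free CPM, were lowest in mature neutrophil-like cells and high in monocyte-like and stem and progenitor-like cells. In the control-labelled library the summed core was highest in granulocyte-monocyte progenitor-like cells at 7232 hemoglobin-free CPM (95% interval 7161 to 7303). It was 7068 in erythroid-like, 6729 in monocyte-like, 6341 in hematopoietic stem and progenitor-like and 6296 in B precursor-like cells. The intervals of the last 2 overlapped. Mature B-like cells had 3865, T-like cells 3623, immature neutrophil-like cells 2872 and mature neutrophil-like cells 1430 (1398 to 1463). In the null-labelled library the order was monocyte-like at 7935, stem and progenitor-like at 7241, mature B-like at 6298, B precursor-like at 5933, T-like at 5026, erythroid-like at 4886, immature neutrophil-like at 3806 and mature neutrophil-like at 2817 (2695 to 2943). Both libraries thus had the neutrophil classes last by this sum, whereas the place of erythroid-like cells depended on the measure. In the control-labelled library they ranked 2 by this sum, 5 by the median cell and 6 by CPM of all UMIs. In the null-labelled library they ranked 6, 6 and 9, and by CPM of all UMIs were below mature neutrophil-like cells (2151 against 2744). By that last measure macrophage-like cells of the control-labelled library ranked 14, below immature neutrophil-like cells at 12. Over single cells the spread was wide, with quartiles of 8.59 and 18.7 core UMIs per 10000 in mature neutrophil-like and 51.6 and 72.9 in monocyte-like cells of the control-labelled library.

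**Figure D1:**
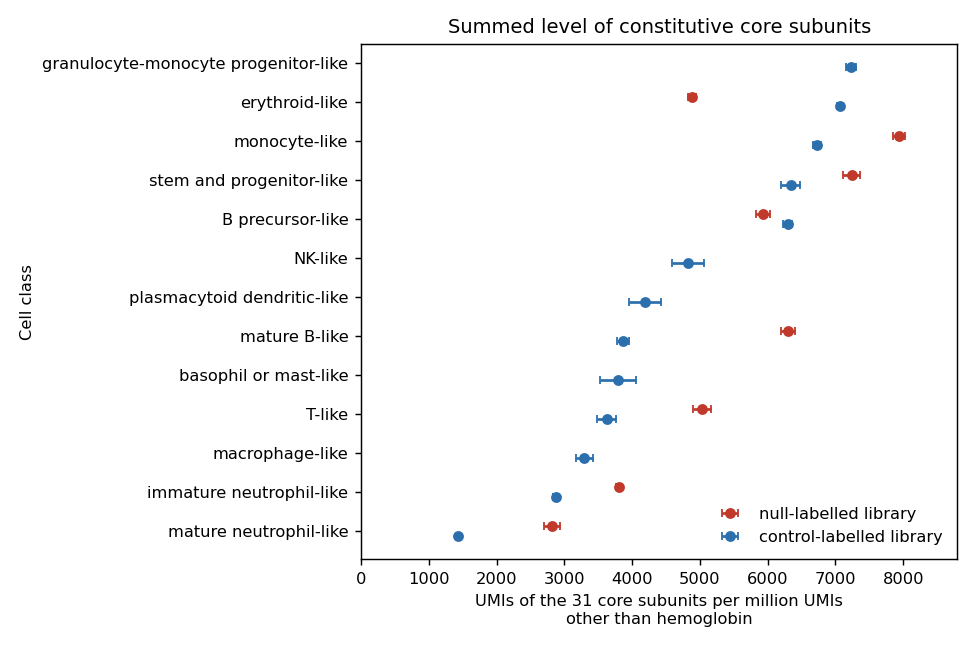
Summed hemoglobin-free CPM of the 31 core subunits (horizontal axis) in each cell class with at least 50 cells (vertical axis), with points for the libraries and bars for exact Poisson 95% intervals. Mature neutrophil-like cells are lowest in both libraries (1430 and 2817), and erythroid-like cells are at 7068 in the control-labelled and 4886 in the null-labelled library.

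The order held gene by gene at its lower end. Mature neutrophil-like cells had the lowest level of 29 of the 31 core subunits among 13 classes of the control-labelled library, and of 24 of 31 among 8 classes of the null-labelled library. The fold between the highest and the lowest class was 6.91 at the median in the control-labelled library, from 2.99 for Psmb3, a β subunit, to 36.2 for Psmd7, a 19S subunit. In the null-labelled library the median fold was 3.50, from 2.06 for the catalytic Psmb7 to 7.15 for Psmd1, a 19S scaffold subunit. Erythroid-like cells were the highest class for 18 core subunits in the control-labelled and for 1 in the null-labelled library, where monocyte-like cells were highest for 18. Cell-cycle genes differed between these classes too: the 15 listed genes summed to 9691 hemoglobin-free CPM in erythroid-like and 54.9 in mature neutrophil-like cells of the control-labelled library, and their part in the order was not tested.

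Members differed in abundance as well. UMIs of 3′ libraries are not scaled by length, so levels between genes are only approximate. Averaged over the libraries, counts per 1000000 of all UMIs (CPM) over all cells were highest for Psma2, at 398 in the null-labelled and 260 in the control-labelled library, for Psme1 at 440 and 181, and for the α subunit Psma7 at 259 and 335. The order differed between the libraries: Psme1 was first in the null-labelled and Psma7 in the control-labelled library. By the same average Psmb11, Psma8 and Psme2b were lowest, although Psmc3ip was below Psme2b in the null-labelled library. Across the 31 core subunits the log2 levels of the libraries correlated with Pearson's r = 0.908 over all cells and 0.756 in erythroid-like cells, where genes share a library and are not replicates.

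The comparison of the libraries asks how proteasome transcripts of the same cell class differ with the Itgb3 genotype label. Members at 50 CPM or more in either library with at least 30 UMIs over both were measured, and a difference is given as the log2 ratio of CPM, null-labelled over control-labelled, minus the median log2 ratio of all genes measured in that class. That median was -0.92 in erythroid-like cells, where hemoglobin took 56.0% of the UMIs in the null-labelled and 35.4% in the control-labelled library, and -0.25 over all cells. It lay between -0.13 and 0.23 in the other classes. A member that reached the minimum in 1 library only had to differ and lends no support. Such members were 19 of 36 measured in erythroid-like, 11 of 24 in mature neutrophil-like, 5 of 32 in immature neutrophil-like, 4 of 38 in mature B-like, 3 of 36 in T-like, 2 of 37 in monocyte-like and 2 of 38 in B precursor-like cells. In erythroid-like cells they include Psma1, Psmb5, Psmc5, Psmc6, Psmd1, Psmd5 and Psme2, named below. Psma5, Psmb6, Psmb7 and Psme2b are among those of mature neutrophil-like cells. Psme2b in mature B-like and Psme3 in B precursor-like cells are others. Counts with the minimum in both libraries, an alternative added after the data were seen that also removes members far down in either library, follow the counts they bear on.

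Over all cells the members were near the median of all genes, and the highest were Psme1, Psme2 and 3 α subunits. The summed core was at 4471 and 4419 CPM, a ratio of 1.01. All-cells values pool classes in unequal proportions. Mature neutrophil-like cells, lowest in core, were 114 of 2903 null-labelled and 1717 of 8595 control-labelled cells. The part of this mix in the all-cells values was not tested. Of the 46 members 36 were measured, and their median relative log2 ratio was 0.18, against -0.06 before all genes were centred, so that the sign depends on the scale. Relative to all genes, 5 members were 1.5-fold or more higher, against 19.1% of 2717 genes measured, and 0 were 1.5-fold or more lower, against 16.9%. With the minimum in both libraries these were 5 and 0 of 35, against 12.4% and 11.5% of genes. The share higher was thus near that of all genes. Members are ranked here and below by the interval bound of the ratio nearest to 1. The highest were Psme2, Psme1, Psma5 and Psma2, and the lowest Psmc6, Psma1, Psma7 and Psmd13.

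By class, the members lay above the median of all genes in 5 of the 7 classes. In mature neutrophil-like cells 16 of 24 measured members were 1.5-fold or more higher and 0 lower, against 30.2% and 30.1% of 2412 genes; with the minimum in both libraries these were 8 and 0 of 13, against 21.1% and 21.7% of genes. In mature B-like cells 20 of 38 were higher and 0 lower, against 22.5% and 27.2% of 3351 genes, and in T-like cells 16 of 36 and 0, against 21.2% and 22.1% of 2943 genes. The libraries differed in depth in T-like cells (median 7093 and 3492 UMIs), and with each cell thinned to 1000 UMIs 3 members were higher, with 17 measured and a relative median of 0.27 in place of 0.58. Monocyte-like cells had 13 higher and 1 lower of 37, against 25.1% and 22.7% of 3441 genes. Immature neutrophil-like cells had 10 higher and 0 lower of 32, against 21.7% and 21.8% of 2052 genes. With the minimum in both libraries the counts higher and lower were 19 and 0 of 34 in mature B-like cells, against 16.8% and 19.1% of genes. They were 12 and 0 of 33 in T-like cells, against 13.6% and 14.5%. Monocyte-like cells then had 12 and 1 of 35, against 15.9% and 14.6%, and immature neutrophil-like cells 7 and 0 of 27, against 13.9% and 15.1%. These 5 classes shared a direction on the CPM scale and relative to all genes, and the members' relative medians were 0.75, 0.62, 0.58, 0.39 and 0.46 in that order.

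B precursor-like cells had a relative median near 0 and erythroid-like cells one of the opposite sign. In B precursor-like cells 1 of 38 measured members was higher and 3 were lower, against 18.6% and 19.9% of 3435 genes, with a relative median of -0.05. With the minimum in both libraries these were 1 and 2 of 36, against 11.9% and 14.9% of genes. In erythroid-like cells 3 of 36 were higher and 14 lower, against 26.9% and 26.2% of 2210 genes, with a relative median of -0.48. With the minimum in both libraries 2 of 17 were higher and 4 lower, against 21.8% and 21.9% of genes, with a relative median of -0.23. On the CPM scale, without centring on all genes, the erythroid split was 3 higher and 30 lower, against 11.2% and 64.1%, and that of mature B-like cells 29 and 0, against 26.9% and 24.0%.

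**Figure D2:**
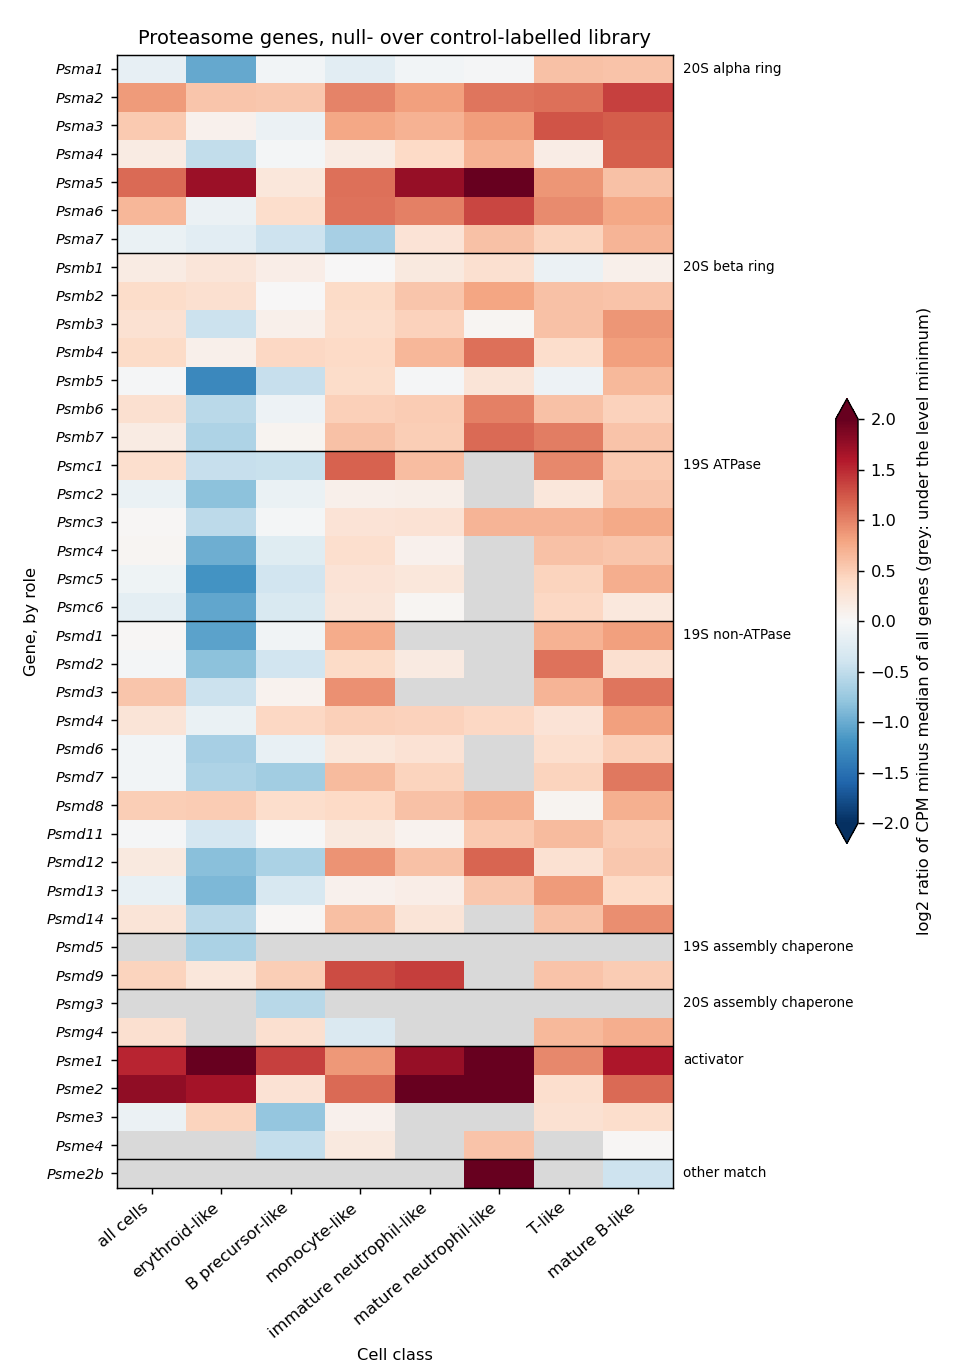
Log2 ratio of CPM, null-labelled over control-labelled library, minus the median of all genes (colour), for each member by role (rows) in all cells and 7 classes (columns), with grey for members under the level minimum. Psme1, Psme2 and Psma5 are red in erythroid-like and both neutrophil-like classes, and the 19S ATPase rows are blue in the erythroid-like column.

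The α ring, which gates entry to the barrel, held Psma5 and Psma2, which were above the median of all genes in all 7 classes. Its summed level was 2313 CPM in the null-labelled and 1101 in the control-labelled library in mature B-like cells (ratio 2.10, 2.00 to 2.21). It was 1890 and 1060 in T-like, 1418 and 902 in immature neutrophil-like and 1158 and 486 in mature neutrophil-like cells. Psma5 was the widest apart. It had 149 UMIs (204 CPM) in null-labelled and 108 UMIs (20.1 CPM) in control-labelled mature neutrophil-like cells, a ratio of 10.2 (7.87 to 13.1). Only the null-labelled library reached the minimum there, so this ratio lends no support.

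In the other classes Psma5 was at 186 and 57.6 CPM in immature neutrophil-like cells (ratio 3.23, 2.92 to 3.57), at 408 and 208 CPM in monocyte-like cells and at 265 and 153 CPM in erythroid-like cells. B precursor-like cells had 203 and 180 CPM, with an interval of the ratio that reached 1.00. Psma5 overlaps 1700010K24Rik, and Psme1 overlaps Emc9, each on the opposite strand. Psma2 had relative log2 ratios from 0.54 in B precursor-like to 1.37 in mature B-like cells (559 and 202 CPM). In erythroid-like cells Psma2 was at 185 and 237 CPM, lower on the CPM scale and higher relative to all genes. Its gene overlaps AW209491 on the same strand, and reads of the overlap cannot be told apart.

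Other α subunits differed between classes. Psma3 was at 428 and 180 CPM in T-like cells (ratio 2.38, 1.97 to 2.89) and at 475 and 193 CPM in mature B-like cells, where Psma4 was at 284 and 116 CPM. Psma7 went the other way in monocyte-like cells, at 519 and 898 CPM (ratio 0.578, 0.548 to 0.609), the only member measured there that was 1.5-fold or more lower. Psma1 was among the 4 lowest members in all cells, in immature and mature neutrophil-like cells and in monocyte-like cells (207 and 262 CPM). In erythroid-like cells Psma1 was at 49.2 and 190 CPM, so the 7 subunits of the ring did not differ alike.

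The β ring with its 3 constitutive catalytic subunits was higher in the null-labelled library in the same 5 classes and lower in erythroid-like cells. Psmb5, Psmb6 and Psmb7 together were at 270 and 137 CPM in mature neutrophil-like, 571 and 363 in mature B-like, 819 and 654 in monocyte-like, 463 and 355 in T-like and 378 and 322 in immature neutrophil-like cells. B precursor-like cells had 532 and 629 CPM, and erythroid-like cells 129 and 421 CPM (ratio 0.305, 0.288 to 0.323). The catalytic genes did not differ alike.

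Psmb5, the chymotrypsin-like subunit, was at 32.8 and 151 CPM in erythroid-like cells (relative log2 ratio -1.28), at 165 and 237 CPM in B precursor-like cells, and at 160 and 171 CPM in T-like cells with an interval of the ratio from 0.740 to 1.18. Psmb7, the trypsin-like subunit, was at 111 and 54.5 CPM in T-like cells (ratio 2.03, 1.42 to 2.95) and had a ratio of 2.58 in mature neutrophil-like cells. Psmb6, the caspase-like subunit, was at 90.3 and 38.1 CPM in mature neutrophil-like cells and at 220 and 245 CPM in B precursor-like cells. In mature neutrophil-like cells Psmb6 and Psmb7 reached the minimum in the null-labelled library only. Psmb1, a non-catalytic neighbour in the ring, was close in level in T-like cells (291 and 318 CPM) and in mature B-like cells (359 and 314 CPM). In mature neutrophil-like cells it was at 114 and 79.1 hemoglobin-free CPM. Psmb4 was at 331 and 259 CPM in B precursor-like cells, among the 4 highest members there. Psmb3 was at 149 and 124 CPM in mature neutrophil-like cells, among the lowest there.

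The ATPases of the 19S cap, which unfold substrates, were the role group farthest down in erythroid-like cells. Psmc1 to Psmc6 summed to 221 and 737 CPM there, with an interval of the ratio from 0.287 to 0.313 and a relative log2 ratio of -0.82. Psmc5 was at 26.4 and 114 CPM and Psmc6 at 39.8 and 155 CPM. In hemoglobin-free CPM the group was at 502 and 1141, still 0.440 of the control-labelled level. In B precursor-like cells the group was at 649 and 802 CPM, and in the other 5 classes it was higher in the null-labelled library, with ratios from 1.12 in immature neutrophil-like to 1.69 in mature neutrophil-like cells. Psmc1 had the largest ratio of the ATPases in monocyte-like cells, at 157 and 75.8 CPM (ratio 2.07, 1.83 to 2.34).

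The other 19S subunits followed the same division. Their sum was 514 and 1327 CPM in erythroid-like cells, 1503 and 870 CPM in mature B-like cells and 582 and 307 CPM in mature neutrophil-like cells. Psmd1 was at 29.8 and 119 CPM in erythroid-like cells. Psmd7 and Psmd12 were among the 4 lowest in B precursor-like cells, at 105 and 177 CPM and at 79.2 and 129 CPM. There Psmd4, a ubiquitin receptor of the cap, was at 180 and 141 CPM. Psmd2, a scaffold subunit, was at 115 and 54.5 CPM in T-like cells (ratio 2.12, 1.48 to 3.07), and Psmd8 there at 106 and 103 CPM. Psmd11 in immature neutrophil-like cells was at 56.1 and 55.4 CPM, and Psmd13 over all cells at 90.2 and 118 CPM.

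**Figure D3:**
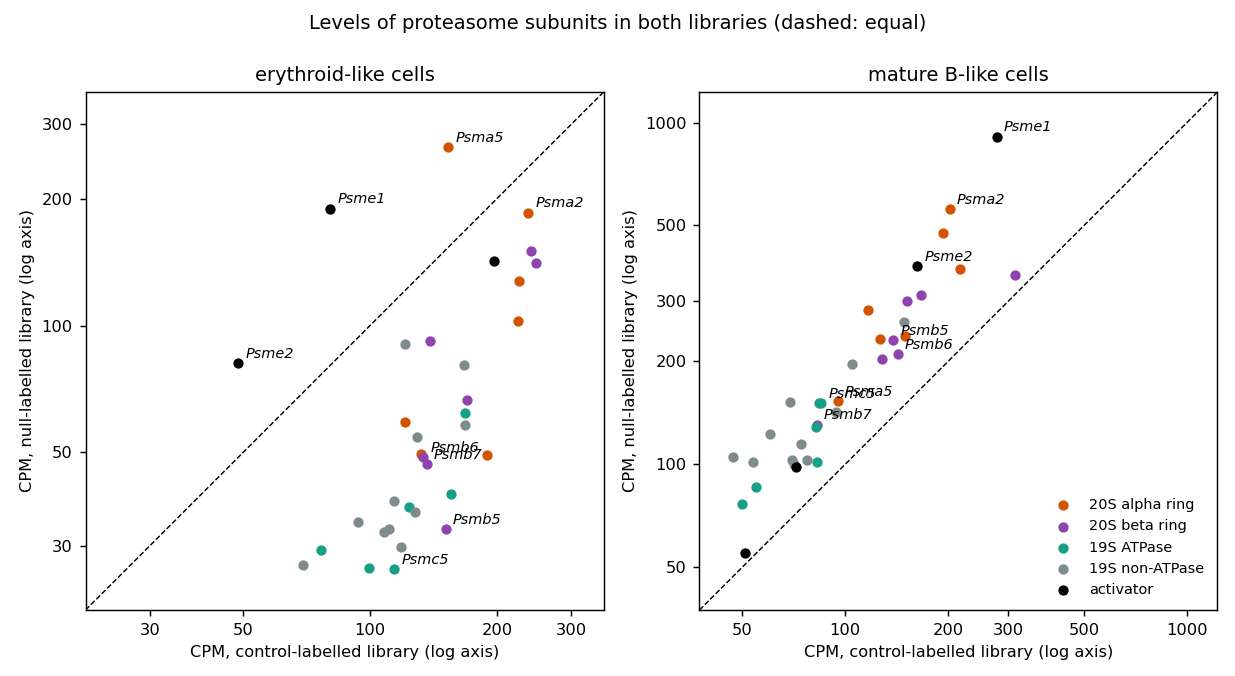
CPM of each measured core subunit and activator in the control-labelled (horizontal, log axis) and null-labelled library (vertical, log axis) in erythroid-like and mature B-like cells, with a dashed line of equal level. In erythroid-like cells Psma5, Psme1 and Psme2 lie above the line and the other points below it, and in mature B-like cells the points lie above it.

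Assembly chaperones were scarce. Of the 3 for the 19S cap, Psmd9 was at 56.6 and 22.7 CPM in immature neutrophil-like cells (ratio 2.50, 2.11 to 2.96) and 90.9 and 40.4 CPM in monocyte-like cells, in both of which only the null-labelled library reached the minimum. In erythroid-like cells Psmd9 was at 82.2 and 133 CPM, lower on the CPM scale and above the median of all genes by 0.23 in log2. Psmd5 was measured in erythroid-like cells only, at 21.1 and 61.8 CPM, and Psmd10 reached the level minimum in none of the 7 classes. The 4 chaperones of the 20S core, Psmg1 to Psmg4, summed to 39.5 and 116 CPM in erythroid-like cells and to 236 and 142 CPM in mature B-like cells. Of these 4, Psmg4 was measured in 4 classes and Psmg3 in 1. Psmg4 was at 79.5 and 106 CPM in monocyte-like cells.

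The activator pair Psme1 and Psme2 stood farthest above the median of all genes of the members' role groups in 6 of 7 classes; in T-like cells the α ring was farther up (relative log2 ratio 0.84 against 0.73). Their sum was 1716 CPM in the null-labelled and 176 in the control-labelled library in mature neutrophil-like cells (ratio 9.73, 8.94 to 10.6) and 1005 and 221 CPM in immature neutrophil-like cells (ratio 4.56, 4.34 to 4.78). In the lymphoid classes it was 1290 and 440 CPM in mature B-like, 741 and 377 in B precursor-like and 1008 and 610 in T-like cells. Monocyte-like cells had 1161 and 634 CPM and erythroid-like cells 271 and 129 CPM. The null-labelled value was above the control-labelled value in all 7 classes, on the CPM scale and relative to all genes.

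Psme1 and Psme2 did not differ to the same extent. Psme2 had 825 UMIs (1129 CPM) in null-labelled and 398 UMIs (74.0 CPM) in control-labelled mature neutrophil-like cells, a ratio of 15.3 (13.5 to 17.2), where Psme1 was at 587 and 102 CPM (ratio 5.74, 5.05 to 6.52). In immature neutrophil-like cells Psme2 was at 616 and 99.3 CPM and Psme1 at 390 and 121 CPM. The lymphoid classes had the reverse order. In B precursor-like cells Psme1 was at 568 and 230 CPM (ratio 2.47, 2.28 to 2.68) and Psme2 at 173 and 147 CPM (ratio 1.18, 1.04 to 1.33). In mature B-like cells Psme1 was at 910 and 277 CPM and Psme2 at 380 and 163 CPM. The partner activators Psme3, of the nucleus, and Psme4 together did not share the higher null-labelled level in B precursor-like and monocyte-like cells. Their sum was 132 and 206 CPM in B precursor-like cells, where Psme3 was at 47.0 and 83.4 CPM, and 103 and 102 CPM in monocyte-like cells. In mature B-like cells 37 of 38 measured members, all but Psme2b, lay above the median of all genes, Psme3 and Psme4 among them. Psme4 in mature neutrophil-like cells reached the minimum in the null-labelled library only. Psme4 in mature B-like cells was at 54.9 and 50.8 CPM. Among the 7 classes compared Psme3 was highest in erythroid-like cells, at 143 and 197 CPM.

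Listed interferon-response genes differed in the same direction. Of 18 genes, all those measured in a class were 1.5-fold or more higher relative to all genes. The counts ran from 11 of 11 in T-like cells, beside 21.2% of all genes, to 17 of 17 in monocyte-like cells, beside 25.1%. The level minimum was required in either library. A gene that reached it in the null-labelled library only had to differ, and how many did so is not given. The 18 genes summed to 18358 and 1856 CPM in mature neutrophil-like cells. Over all cells the most abundant were Ifitm3, a membrane antiviral factor, at 3699 and 560 CPM, and Isg15, a ubiquitin-like modifier, at 2311 and 127 CPM. Their part in the differences of members was not tested.

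The immunoproteasome genes were set beside the constitutive catalytic gene each replaces. In the control-labelled library erythroid-like cells were almost wholly constitutive: Psmb8 made up 2.70% of the UMIs of Psmb8 and Psmb5 (exact binomial 95% interval 2.13 to 3.38), Psmb9 5.37% of the pair with Psmb6, and Psmb10 8.69% of the pair with Psmb7. In the null-labelled library the shares were 58.7% (55.4 to 62.0), 63.7% and 82.4%. Both sides of each pair differed, since Psmb8 was at 46.7 and 4.19 CPM while Psmb5 was at 32.8 and 151 CPM.

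Shares in the other classes differed to unequal extents. In immature neutrophil-like cells the Psmb8 share was 82.9% and 39.2%, the Psmb9 share 62.8% and 42.3% and the Psmb10 share 78.7% and 23.8%. In mature neutrophil-like cells the Psmb10 share was 83.2% and 32.4%, while the Psmb9 shares of 76.5% and 72.1% had overlapping intervals. B precursor-like cells had a Psmb8 share of 75.6% and 54.5% and a Psmb9 share of 65.0% and 39.1%, and monocyte-like cells 72.5% and 61.6%. In mature B-like cells the Psmb8 shares of 70.9% and 72.8% had overlapping intervals. T-like cells had a lower Psmb10 share in the null-labelled library, 62.0% (56.4 to 67.4) against 76.9% (70.2 to 82.7), with Psmb10 at 181 CPM in both libraries and Psmb7 at the levels above.

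**Figure D4:**
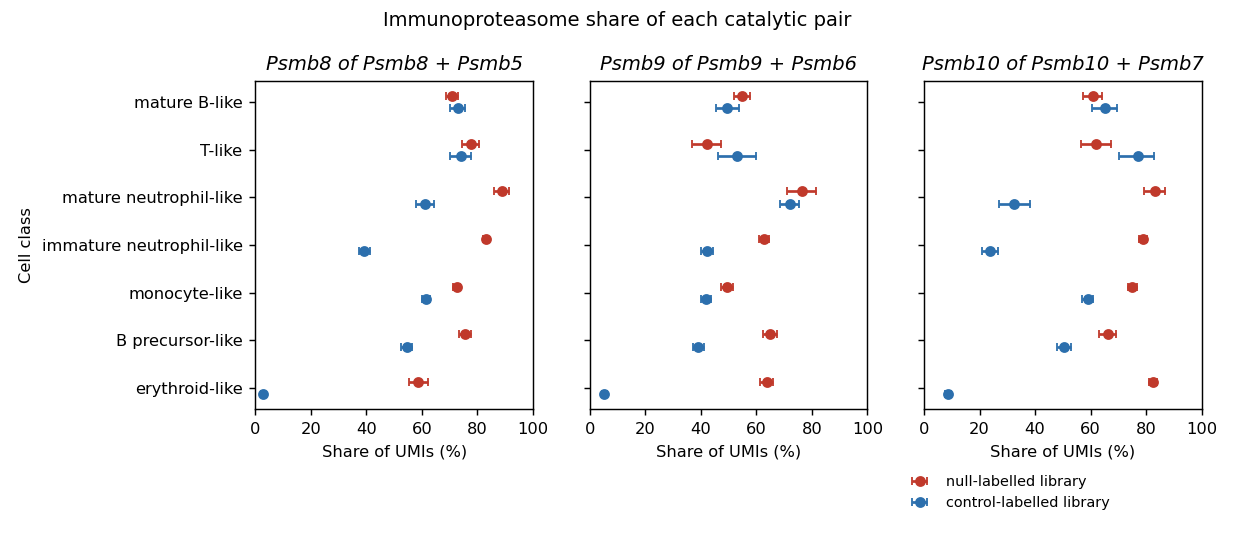
Share of UMIs (percent, horizontal axis) that Psmb8, Psmb9 or Psmb10 made up of its pair with the constitutive catalytic gene, by cell class (vertical axis) and library (colour), with exact binomial 95% intervals. In erythroid-like cells the control-labelled shares are 2.70%, 5.37% and 8.69% and the null-labelled shares 58.7%, 63.7% and 82.4%.

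Markers of other cells in the erythroid-like class were low in both libraries. In hemoglobin-free CPM, the 7 immature neutrophil markers summed to 143 in the null-labelled and 261 in the control-labelled library, the 7 mature neutrophil markers to 7.52 and 59.5, the 7 monocyte markers to 27.0 and 15.3, and the 7 mature B markers to 24.0 and 43.8. All but the monocyte and the T markers (1.25 and 0.614) were lower in the null-labelled library. Hemoglobin in cells that do not make it, a sign of free RNA, also differed, at 0.640% and 8.58% of UMIs in mature B-like cells and at 0.129% and 5.93% in T-like cells. Without hemoglobin in the total the core ratio was 1.63 rather than 1.77 in mature B-like cells and 1.39 rather than 1.47 in T-like cells.

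Erythroid-like cells spread over maturation, and the libraries differed in that spread. By the hemoglobin share of a cell's UMIs, 104 null-labelled and 443 control-labelled cells were under 20%, 263 and 673 from 20% to 60%, and 601 and 926 over 60%; 89 and 156 cells lay within 5 points of the upper limit, 39 and 119 of the lower. Within these ranges the summed core, in hemoglobin-free CPM, was 5848 and 8120 under 20%, 4262 and 5684 from 20% to 60%, and 3764 and 2839 over 60%. By single members, 11 of 33 measured on this scale over 60% were 1.5-fold or more higher relative to all genes and 13 lower, with a relative median of -0.29. The share of all genes is not given for this range, so these counts do not set the members apart from other genes. The summed null-labelled value was thus lower in the first 2 ranges and higher in the last (ratio 1.33, 1.26 to 1.39).

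The reversal in the cells richest in hemoglobin lay in the α ring. Its sum over 60% hemoglobin was 2330 and 789 hemoglobin-free CPM (ratio 2.95, 2.72 to 3.21), while the β ring was at 580 and 650, the ATPases at 167 and 323 and the other 19S subunits at 687 and 1076. Psma5 alone went from 406 and 298 under 20% to 588 and 134 and then to 1047 and 59.1 over 60%, where its ratio was 17.7 (13.6 to 23.5) on 1076 and 58 UMIs. Psma2 was at 618 and 357 in that range, and Psma7 at 319 and 42.8 (ratio 7.45, on 328 and 42 UMIs), after 92.8 and 221 in the middle range. Psma1, by contrast, was at 18.5 and 68.3. In that range Psma7 reached 50 hemoglobin-free CPM in the null-labelled library only, and Psma1 in the control-labelled library only. The ratios of Psma7 and Psma1 there therefore lend no support. The 3 subunits Psma5, Psma2 and Psma7 were named after their values in these ranges were seen.

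The sum of the 19S ATPases was lower in the null-labelled library in every range, with ratios of 0.540, 0.427 and 0.518. These ratios describe the sum and not each ATPase. The sum of Psme1 and Psme2 was 702 and 235 under 20%, 334 and 131 in the middle, and 850 and 121 over 60%. Psmb8, Psmb9 and Psmb10 together were at 648 and 50.8 under 20%, and at 1228 over 60%, where the control-labelled library held 8 UMIs in all. The median depth over 60% was 9857 and 4986 UMIs per cell, and its part in these differences was not tested.

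**Figure D5:**
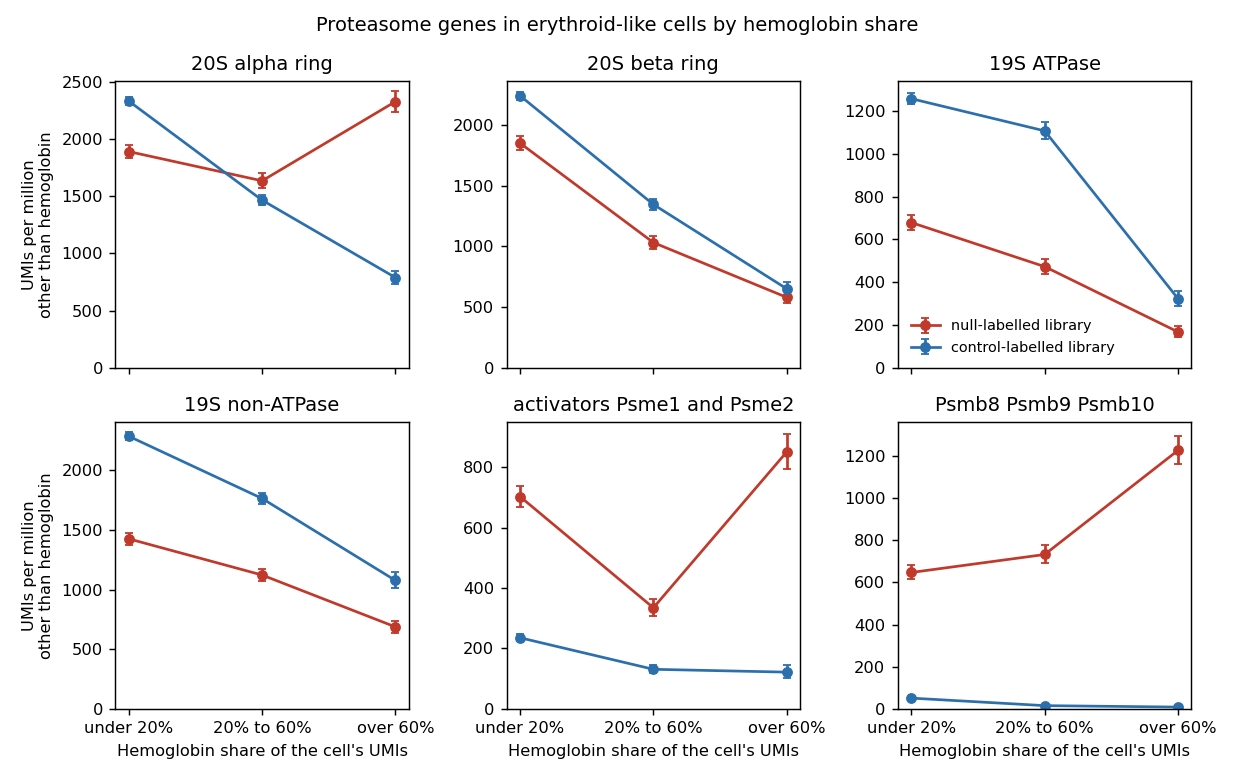
Summed hemoglobin-free CPM (vertical axes, each from 0) of 6 gene groups in erythroid-like cells by hemoglobin share of the cell (horizontal axis), with exact Poisson 95% intervals and a line for each library. The α ring reaches 2330 in null-labelled and 789 in control-labelled cells over 60%, while the 19S ATPases are lower in the null-labelled library in each range.

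Of the matches kept apart, Psmb11 and Psma8 were close to the limit of detection. Psmb11 had 1 UMI in the null-labelled library and 0 in the control-labelled library, where the limit of 3 UMIs corresponds to 0.0508 CPM. Psma8 had 22 and 46 UMIs (0.655 and 0.780 CPM). Psmc3ip was at 13.4 and 23.9 CPM over all cells, and in erythroid-like cells at 9.48 and 35.5 CPM. Psme2b was at 65.7 and 9.86 CPM in mature neutrophil-like and 42.4 and 52.9 CPM in mature B-like cells. As a copy of Psme2 it may share reads with that gene, which was not measured, and it overlaps Gm12185 and 9930111J21Rik1. The level of Psme2b is therefore uncertain.

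Other genes of the ubiquitin-proteasome route, 28 of them on the list, were counted for comparison. Over all cells the ubiquitin genes Rps27a (3401 and 3574 CPM) and Ubb (2452 and 1721 CPM) and the 19S subunit gene Sem1 (663 and 752 CPM) were the most abundant. Psmf1, a proteasome inhibitor, was at 80.1 and 41.0 CPM (ratio 1.95, 1.85 to 2.06), and Ufd1, a cofactor of the segregase Vcp, at 57.3 and 34.8 CPM. In mature B-like cells 8 of 21 were 1.5-fold or more higher relative to all genes and 1 lower, beside 22.5% and 27.2% of all genes, and Pomp, the maturation factor of the 20S core, was at 419 and 187 CPM. In erythroid-like cells 7 of 17 were higher and 0 lower, beside 26.9% and 26.2%, whereas Pomp was at 66.2 and 178 CPM.

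Heat-shock genes, which like the proteasome serve protein quality control, were counted beside these. In mature B-like cells 4 of 5 measured were higher, beside 22.5% of all genes, with a sum of 5698 and 2770 CPM. In erythroid-like cells 0 of 6 were higher and 3 lower, beside 26.9% and 26.2%, with 1213 and 3730 CPM. Over all cells the most abundant were Hsp90ab1 at 1094 and 1350 CPM and Hspa8 at 852 and 892 CPM. Cell-cycle genes, among them Mki67 (427 and 723 CPM) and Birc5 (302 and 376 CPM) over all cells, were lower in 11 of 15 in B precursor-like and 12 of 15 in monocyte-like cells, beside 19.9% and 22.7% of all genes, and their part in the members' differences was not tested.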

How the data were processed

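Droplet-based 3′ libraries of bone marrow cells, 1 per genotype label, were deposited by the authors as raw UMI counts per gene and cell barcode, made with Cell Ranger 3.0 on mm10 per the submitters' processing notes, which also name Seurat; the file headers give 3.1.0. Cells needed at least 200 genes and at most 10% mitochondrial UMIs; removed next were 71 and 690 cells scored as doublets by Scrublet in scanpy 1.11.5. Cells of both libraries were clustered together on 2000 variable genes without the members (Leiden resolution 1) and named from marker lists; the scoring that turned markers into names was set after the data were seen. UMIs were summed per class and library. Ratios of CPM have exact binomial intervals and levels exact Poisson intervals, computed with scipy 1.17.1 and tested on simulated data. TMM factors came from edgeR 4.0.16.

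The members and gene lists were chosen with earlier results of these data known. Named were the 3 catalytic genes, Psme1, Psme2 and the matches kept apart, the 4 highest and 4 lowest members per class, the 3 highest and 3 lowest by level, and the leading genes of the other lists, of which 1 gene is not reported here; Psma7, Psma2 and Psma5 in hemoglobin ranges, and further values beside them, were added after their values were seen. Alternatives covered scaling, level minimums, cell filters, doublets, averaging, depth and clustering. Promoter windows are from RefSeq, and gene positions from GENCODE vM21, which held 99.6% of the listed genes.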

Additional observations from a re-analysis of the deposited data

Results flagged for a closer look

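Barcodes that the cell filter removed, which no comparison used, still held UMIs of the 31 core subunits. In the null-labelled library these were 152 CPM (145 to 160 by exact Poisson interval, 1521 of 9993203 UMIs), and in the control-labelled library 226 CPM (2877 of 12725209 UMIs), against 4471 and 4419 in the kept cells.

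The chaperones of 20S assembly, Psmg1 to Psmg4, stood on opposite sides of the median of all genes in different classes. Their relative log2 ratio was 0.64 in mature B-like and -0.64 in erythroid-like cells, and this difference between classes was not tested.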

How the results depend on the processing

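Of the members' relative medians per class under the alternatives, 105 stayed within the counting interval of the main value, 6 moved and 1 reversed. Of the 105, 1 changed sign, B precursor-like cells with a mean over cells (0.05 against -0.05). TMM and median-of-ratios factors cancel when the median of all genes is subtracted, so these settings could not move a relative median. They count among the 105 and show no stability. The interval was wide in T-like cells, from 0.11 to 0.99. The median of 0.27 there on cells thinned to 1000 UMIs, against 0.58, therefore counts as within it. In erythroid-like cells with over 60% hemoglobin the median was 2.77 over 7 measured members, against -0.48 in all erythroid-like cells, and the summed core was 0.65; few members reach 50 CPM there, and on hemoglobin-free CPM the median over 33 members was -0.29. The median moved to 0.29 over all cells with a mean over cells, to 0.91 in mature B-like and -0.26 in B precursor-like cells with a mitochondrial limit of 5%, and to 0.54 in monocyte-like cells thinned to 1000 UMIs. With a minimum of 50 CPM in both libraries, chosen after seeing the data, it moved to 0.10 over all cells and -0.23 in erythroid-like cells, with counts lower from 14 to 4 there and higher from 16 to 8 in mature neutrophil-like cells. Psme3 in B precursor-like cells reversed to 0.29 on thinned cells. The cause was not tested.

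Counts of members 1.5-fold or more higher changed from 20 to 34 in mature B-like and from 3 to 7 in erythroid-like cells with a minimum of 10 UMIs and no CPM minimum, from 16 to 3 in T-like and from 5 to 8 over all cells on thinned cells, from 5 to 8 over all cells with a mean over cells, and from 16 to 9 in T-like and in mature neutrophil-like cells with a minimum of 100 UMIs and 100 CPM. Counts lower changed from 3 to 8 in B precursor-like cells with a mitochondrial limit of 5% and from 14 of 36 to 2 of 7 in erythroid-like cells with over 60% hemoglobin, against 13 of 33 there on hemoglobin-free CPM. Level minimums, thinning and cell choice also change how many members are measured. The share of all genes under each setting is not given beside these counts. They therefore do not by themselves show a change in the members. TMM moved the median of all genes by 0.86 in erythroid-like cells and by 0.19 over all cells.

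No paired analysis was possible because each genotype had 1 library and the labels carry no replicate numbers, which also gives no replicate to leave out. Identity between member proteins was not run.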
